A study of Mus musculus with 14 samples.

Results

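The Hox genes are the homeobox genes of the Hoxa, Hoxb, Hoxc and Hoxd clusters. They were taken as every gene whose updated symbol was Hoxa, Hoxb, Hoxc or Hoxd followed by a number, which gave 36 of the 16879 genes on the array. The clusters contributed 10 Hoxa genes, 9 Hoxb genes, 8 Hoxc genes and 9 Hoxd genes, and other Hox genes were not analysed here. Each Hox gene had 1 probe with 1 gene symbol, all 36 passed the filter on missing values, and 1 value was missing, that of Hoxa11 in tumour T372. The probe sequences were not used here, so whether a probe also binds a related Hox transcript was not tested.

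RNA came from 12 mammary tumours of mice with 1 working copy of Brg1 (Brg1+/-), measured on 14 two-colour arrays. Brg1, the product of Smarca4, is the ATPase that drives the SWI/SNF chromatin remodelling complex. Every array carried tumour RNA in Cy5 against the same mouse reference RNA in Cy3, and a positive value was read as more transcript in the tumour than in the reference, on the log2 scale. The sources used here do not state which channel is the numerator, and the opposite reading would turn the sign of every value and difference below. T172 and T284 had a second array each, marked as a biorep, and T55, T135, T160, T176, T221, T372, T646, T920, T2023 and T2134 had 1 array. All tumours shared the Brg1+/- genotype, and no tumour of another genotype and no normal gland was compared. The labels used here give no strain, age or way of making the Brg1 allele, leave the word MIXED in the sample names unexplained, and do not tell to which animal each tumour belonged or what the second arrays repeated. The p-values therefore measure only the spread between these samples, which may in part be technical, and with so few arrays their precision is limited.

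Hox proteins are transcription factors that give cells along the body axis and the limbs their positional identity. The genes lie in the order of their paralogue numbers, low numbers acting towards the head and high numbers towards the tail and the limb tips, and genes with the same number in different clusters are paralogues with related functions. Trithorax and Polycomb chromatin complexes keep them on or off through cell division, retinoic acid and Cdx factors help to switch them on, and Pbx and Meis proteins bind DNA with them. In the mammary gland, Hoxc8 takes part in placing the embryonic buds, and the paralogues Hoxa9, Hoxb9 and Hoxd9 are jointly needed for growth of the gland in pregnancy.

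RefSeq promoters, from 250 bases before to 50 after a transcript start on GRCm38.p6, were held for 22 of the 36 Hox genes, with 24 starts. Shown are those of the 4 Hox genes whose ratios varied most between tumours (below), because CpG-rich starts are where Polycomb and Trithorax complexes bind. They read 5′ to 3′ on the gene's own strand, with CpG dinucleotides in capitals.
Hoxa5, chr6:52204538-52204837, minus strand: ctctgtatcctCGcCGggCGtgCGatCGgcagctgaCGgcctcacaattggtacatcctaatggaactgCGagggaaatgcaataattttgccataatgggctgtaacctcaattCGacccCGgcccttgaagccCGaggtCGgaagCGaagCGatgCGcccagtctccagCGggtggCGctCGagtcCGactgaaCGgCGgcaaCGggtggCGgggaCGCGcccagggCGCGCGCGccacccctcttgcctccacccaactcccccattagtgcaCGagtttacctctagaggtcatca
Hoxa7, chr6:52218524-52218823, minus strand: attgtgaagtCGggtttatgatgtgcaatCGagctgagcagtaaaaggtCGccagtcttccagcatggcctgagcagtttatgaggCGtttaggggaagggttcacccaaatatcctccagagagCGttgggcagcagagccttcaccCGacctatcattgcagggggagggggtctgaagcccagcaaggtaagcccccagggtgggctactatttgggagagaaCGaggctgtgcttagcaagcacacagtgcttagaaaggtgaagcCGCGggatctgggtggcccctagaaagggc
Hoxa10, chr6:52234890-52235189, minus strand: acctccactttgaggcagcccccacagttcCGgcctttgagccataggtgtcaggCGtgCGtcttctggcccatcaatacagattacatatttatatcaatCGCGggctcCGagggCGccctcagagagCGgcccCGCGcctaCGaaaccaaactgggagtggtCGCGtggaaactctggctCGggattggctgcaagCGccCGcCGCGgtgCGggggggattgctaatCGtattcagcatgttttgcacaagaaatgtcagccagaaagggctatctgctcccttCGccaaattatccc
Hoxa10, chr6:52240805-52241104, minus strand: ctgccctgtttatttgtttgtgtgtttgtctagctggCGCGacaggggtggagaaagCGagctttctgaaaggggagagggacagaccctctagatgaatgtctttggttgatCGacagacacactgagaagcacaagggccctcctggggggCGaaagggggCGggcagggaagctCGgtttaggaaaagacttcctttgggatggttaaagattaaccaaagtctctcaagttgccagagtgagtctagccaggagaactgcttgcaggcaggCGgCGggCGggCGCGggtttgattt
Hoxd4, chr2:74721728-74722027, plus strand: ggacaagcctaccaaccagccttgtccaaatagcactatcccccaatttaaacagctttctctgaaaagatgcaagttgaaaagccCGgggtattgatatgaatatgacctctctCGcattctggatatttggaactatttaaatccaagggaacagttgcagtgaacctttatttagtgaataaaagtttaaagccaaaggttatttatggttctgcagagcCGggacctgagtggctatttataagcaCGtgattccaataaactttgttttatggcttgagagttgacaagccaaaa
The Hoxa5 window held 29 CpGs, the Hoxa10 windows 21 and 12, the Hoxa7 window 9 and the Hoxd4 window 4. Over all 24 Hox windows the median was 14.5 CpGs, against 7 over all 32851 promoters of the table. The core of Cdx sites, TTTATNG, searched on both strands, occurred in 2 of the 24 Hox windows and in 10.9% of all promoters. Both were those of Hoxb8 and Hoxd4, with 3 matches each. A joint Pbx and Hox site, TGATNNAT, also searched on both strands, occurred in 4 of the 24 windows, those of Hoxa2, Hoxb1, Hoxb8 and 1 of the Hoxd11 starts, and in 8.85% of all promoters. These matches describe the letters only.

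Some Hox genes of every cluster differed between the tumours, and most did not pass the test. By limma's moderated F-test over the 12 tumours, with Benjamini-Hochberg adjustment over all genes and a call at an adjusted p under 0.05, 9 of 36 Hox genes were called. Of all 16877 genes tested, 18.3% were called. The 9 were Hoxa2, Hoxa5, Hoxa7, Hoxa10, Hoxb2, Hoxb5, Hoxc6, Hoxd4 and Hoxd12. At an adjusted p under 0.01, 6 of 36 Hox genes were called against 9.35% of all genes. The SD of a Hox gene over the tumours had a median of 0.407, against 0.386 for all genes, and 4 of 36 Hox genes (11.1%) had an SD of at least 1, against 7.93% of all genes. Without T176, the tumour described further below, 5 of 36 Hox genes were called, Hoxa5, Hoxa7, Hoxb2, Hoxb5 and Hoxd4, against 14.9% of all genes. The samples are bulk tissue, in which fewer cells of a type and less RNA per cell cannot be told apart.

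**Figure D1:**
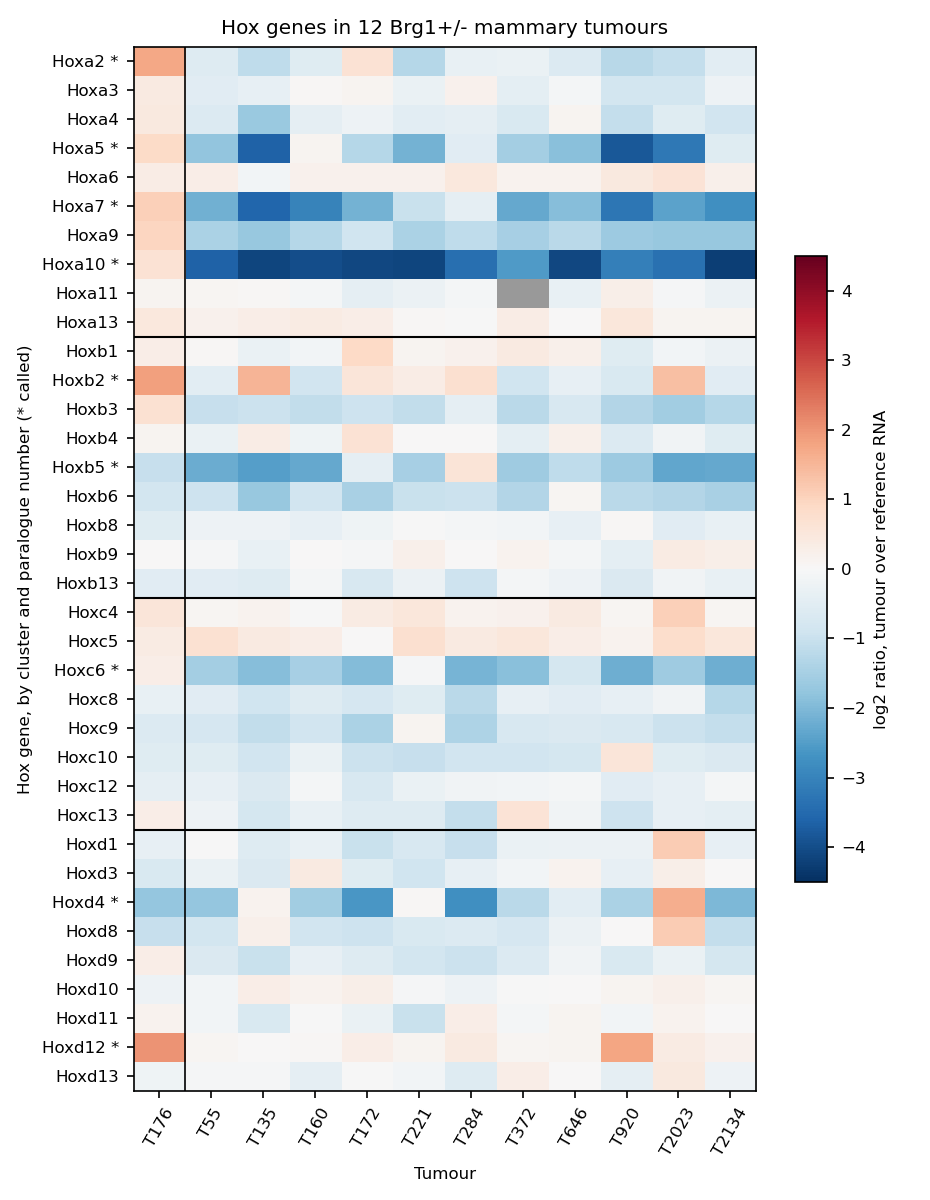
Log2 ratio of tumour over reference RNA for 36 Hox genes (rows, by cluster and paralogue number, called genes with an asterisk) in 12 tumours (columns, T176 first); grey marks the missing value. The Hoxa10 row is at 0.65 in T176 and between -4.23 and -2.54 in the other 11 tumours, and the Hoxd4 row is highest in T2023, at 1.64.

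By cluster, 4 of 10 Hoxa genes, 2 of 9 Hoxb genes, 1 of 8 Hoxc genes and 2 of 9 Hoxd genes were called, against 18.3% of all genes. Without T176 the counts were 2 in Hoxa, 2 in Hoxb, 0 in Hoxc and 1 in Hoxd, against 14.9% of all genes. A difference between clusters was not tested. The median SD over tumours was 0.638 for Hoxa, 0.383 for Hoxb, 0.378 for Hoxc and 0.407 for Hoxd. By position, 2 of 7 genes of paralogue numbers 1 to 3 were called, 5 of 14 of numbers 4 to 8, and 2 of 15 of numbers 9 to 13. Both measured genes of number 2 and the single measured gene of number 7 were among the called genes.

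SDs within a tumour, here and below, are limma's moderated values, which draw a gene's spread between second arrays towards a prior over all genes. Hoxa5, needed for lung and airway formation in mice, had the largest SD of the Hox genes, 1.46, against an SD of 0.299 within a tumour. Its log2 ratio was -3.81 in T920, the lowest tumour, had a median of -1.65 and reached 0.87 in T176. Only T176 and T160 (0.14) lay above the reference, and T135 (-3.62) and T2023 (-3.22) lay near T920 at the low end. The F-test gave an adjusted p of 0.000741 in limma, and the call was kept in all 21 alternatives, the highest adjusted p being 0.00161. Hoxa10, which patterns the uterus and the upper hind limb, was at -4.23 in T2134, at a median of -3.80 and at 0.65 in T176. No other tumour came near: the next was T372 at -2.54, and the SD was 1.36 against 0.336 within a tumour (limma adjusted p = 0.00209). Without T176 the SD of Hoxa10 was 0.55 and it was not called (limma adjusted p = 0.206).

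Hoxa7, a gene of the trunk, ran from -3.56 in T135 over a median of -2.22 to 1.06 in T176 (SD 1.31, within a tumour 0.350, limma adjusted p = 0.00247). Unlike Hoxa10 it had an intermediate pair, T284 at -0.39 and T221 at -0.99, below T176 and above the remaining 9 tumours, and it was called without T176. Hoxa2, which gives the pharyngeal arches and hindbrain their identity, ran from -1.27 in T221 over a median of -0.57 to 1.74 in T176 (SD 0.870, limma adjusted p = 0.0380). Its second highest tumour was T172 at 0.66, whose 2 arrays read 1.19 and 0.13. Without T176 Hoxa2 was not called (limma adjusted p = 0.170).

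In the Hoxb cluster the called genes were Hoxb2, which acts in the hindbrain and on facial motor neurons, and Hoxb5, known from neural crest and the shoulder. Hoxb2 was -0.90 in T372, -0.01 at the median and 1.84 in T176 (SD 0.979, within a tumour 0.285, limma adjusted p = 0.00503). T135 at 1.52 and T2023 at 1.35 stood close to T176, so this gene did not set T176 apart, and its call was kept without T176. Hoxb5 was -2.47 in T135, -1.62 at the median and 0.57 in T284 (SD 0.919, within a tumour 0.312, limma adjusted p = 0.00394). T172 was next at -0.42, followed by T176 at -1.04, and only T284 was above the reference.

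Hoxc6, expressed in the embryonic thorax, was the called gene of the Hoxc cluster. It was -2.19 in T2134, -1.74 at the median and 0.29 in T176 (SD 0.831, within a tumour 0.323, limma adjusted p = 0.0226). T221 at -0.05 and T646 at -0.78 followed T176, and the other 9 tumours lay at -1.48 or lower. Without T176 it was not called (limma adjusted p = 0.0882).

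In the Hoxd cluster, Hoxd4, which patterns the neck vertebrae, was -2.75 in T284, -1.48 at the median and 1.64 in T2023 (SD 1.27, within a tumour 0.327, limma adjusted p = 0.00157). T135 at 0.16 and T221 at 0.07 were the other tumours above the reference, and T176 at -1.75 was among the lower ones. Hoxd12, which acts in the digits, was 0.03 in T135, 0.16 at the median and 2.04 in T176 (SD 0.687, within a tumour 0.283, limma adjusted p = 0.0358). T920 at 1.77 was next, and the other 10 tumours lay between 0.03 and 0.39. The call of Hoxd12 was lost without T176 (limma adjusted p = 0.179) and without T920 (0.0896).

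**Figure D2:**
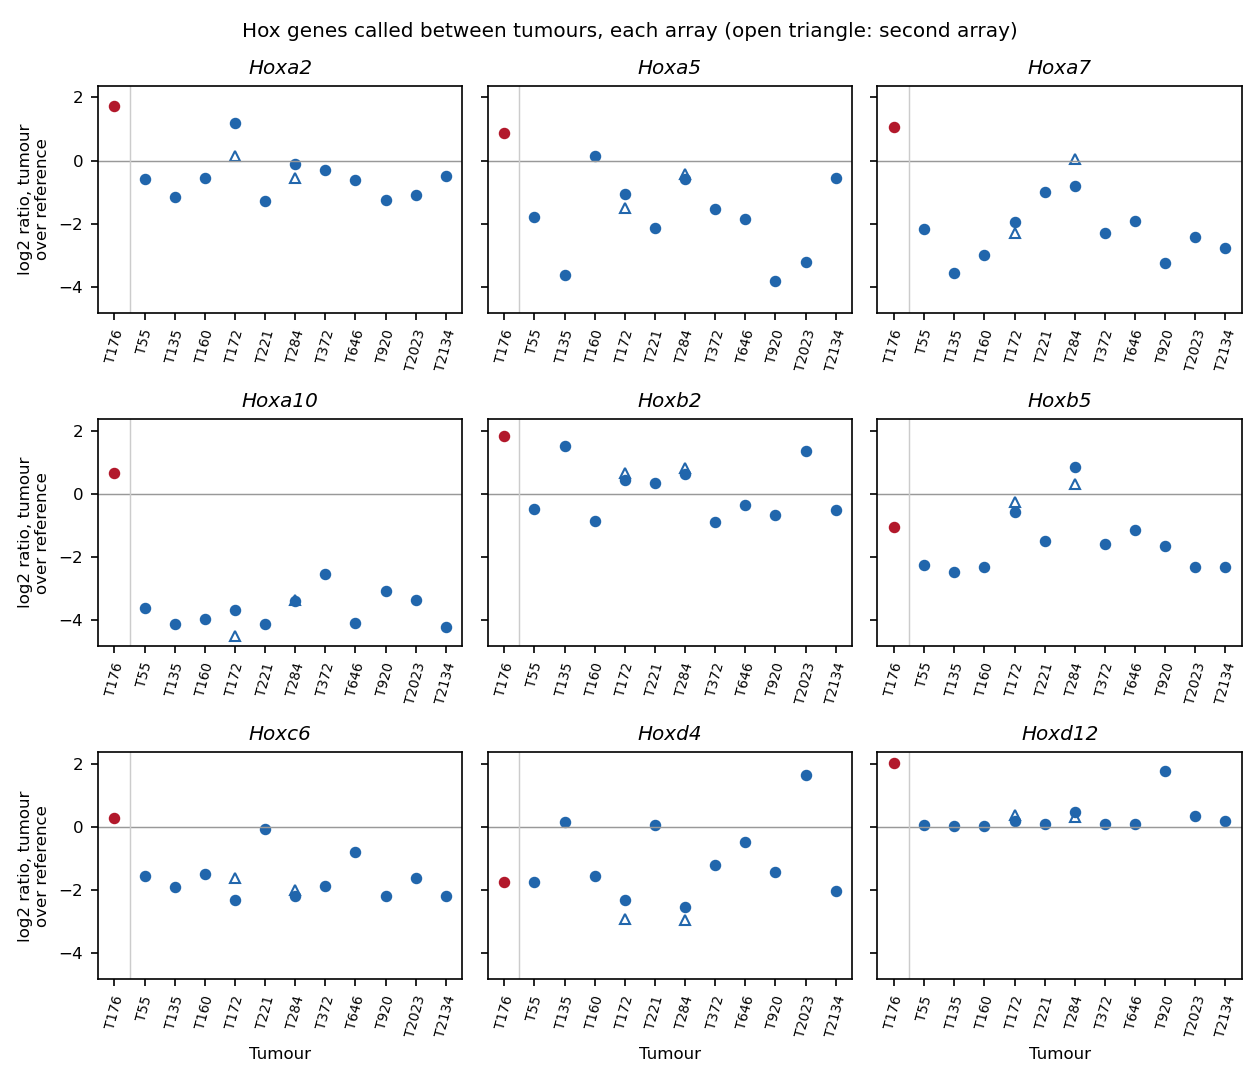
Log2 ratio of tumour over reference RNA on each array for the 9 called Hox genes, with T176 in red at the left and the other 11 tumours in blue; filled circles are first arrays and open triangles the second arrays of T172 and T284. T176 is the highest tumour for Hoxa2, Hoxa5, Hoxa7, Hoxa10, Hoxb2, Hoxc6 and Hoxd12, while T284 is highest for Hoxb5 and T2023 for Hoxd4.

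The other 27 Hox genes did not pass the F-test. Hoxa9, which acts in blood stem cells and in the mammary gland, was nearest, at a limma adjusted p of 0.0535. It was called in 15 of 21 alternatives, with adjusted p-values from 0.0132 to 0.761, the highest being that without T176. Hoxa4 (limma adjusted p = 0.103), Hoxd8 (0.125) and Hoxb3 (0.147) followed. The smallest SDs over tumours were those of Hoxa13 (0.173), Hoxd10 (0.184), Hoxb8 (0.185) and Hoxa6 (0.191), each smaller than the median SD within a tumour of the Hox genes, 0.32. None of the 4 measured genes of paralogue number 13 and none of the 4 of number 9 was called, against 18.3% of all genes. Groups of 4 genes are too small to read this as a trait of these numbers.

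Against the reference RNA, whose make-up the labels do not give, the mean log2 ratio lay below 0 for 27 of 36 Hox genes (75%, against 48.9% of all genes), and this count was 27 after quantile and after median absolute deviation scaling too. Hoxb13, Hoxc8 and Hoxc12 (8.33% of Hox genes, against 14.6% of all genes) were below the reference in all 12 tumours. Hoxc8, the gene of the embryonic mammary buds, was at -1.28 in T2134, -0.53 at the median and -0.16 in T2023, and did not pass the test between tumours (limma adjusted p = 0.700). Hoxc5 and Hoxd12 (5.56% of Hox genes, against 9.33% of all genes) were above it in all 12. Because all arrays had the tumour in Cy5, a dye effect on a probe is part of such a ratio, but it cancels in the differences between tumours.

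In T176 4 Hox genes were called higher than in the other tumours, among them the neighbours Hoxa9 and Hoxa10, and no Hox gene was called lower. Each tumour was set against the mean of the other 11 with limma's moderated test, adjusted over all genes within the tumour. The 4 were of 36 Hox genes tested. Of all genes 3.83% were called in T176, 2.48% higher and 1.35% lower. Hoxa10 was at 0.65 in T176, against -4.23, -3.98 and -2.54 as lowest, median and highest of the other 11. That is a difference of 4.34 ± 0.531 on the log2 scale (SE; limma adjusted p = 0.000405). Its neighbour Hoxa9 was at 0.97 in T176, against -1.72, -1.41 and -0.91 as lowest, median and highest of the others, a difference of 2.39 ± 0.300 (SE; limma adjusted p = 0.000474). For both genes T176 was alone above the reference and did not overlap the other tumours.

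Hoxb3, which acts in the hindbrain and the thyroid, was at 0.68 in T176, against -1.55, -1.10 and -0.42 as lowest, median and highest of the others. The difference was 1.75 ± 0.330 (SE; limma adjusted p = 0.00774). Hoxa2 was at 1.74 in T176, against a lowest of -1.27 and a highest of 0.66 in the others, a difference of 2.37 ± 0.546 (SE; limma adjusted p = 0.0274). The call of Hoxa2 in T176 was lost without the second array of T172 (adjusted p = 0.0836) and with first arrays only (0.0944). Calls of Hoxa9, Hoxa10 and Hoxb3 in T176 were kept in all 22 alternatives. Every one of these keeps the single array of T176, so they do not test that array. Hoxa9 and Hoxb3 did not pass the F-test over the tumours, which rests on the spread between second arrays. Hoxa7 was at 1.06 in T176 against -3.56 to -0.39 in the others, a difference of 3.31 ± 0.876 (SE), and missed the threshold (limma adjusted p = 0.0571). Hoxd12 (1.72 ± 0.489, limma adjusted p = 0.0826), Hoxd9 (0.95 ± 0.299, 0.129), Hoxc6 (1.90 ± 0.626, 0.153) and Hoxa5 (2.70 ± 1.20, 0.349) missed it as well.

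All 10 Hoxa genes had a positive difference in T176, with a median of 1.71 and a range from 0.06 for Hoxa6 to 4.34 for Hoxa10. In Hoxb 7 of 9 genes had a positive difference (median 0.25), in Hoxc 6 of 8 (median 0.26) and in Hoxd 3 of 9 (median -0.10). Within Hoxa the differences did not rise or fall steadily with the paralogue number. Hoxa2, Hoxa5, Hoxa7, Hoxa9 and Hoxa10 differed by 2.37 to 4.34, and Hoxa3 and Hoxa4 by less. Hoxa6, Hoxa11 and Hoxa13 differed by 0.06 to 0.26. These last genes varied little over the tumours (SD 0.191, 0.214 and 0.173). Whether their probes gave signal is unknown, so their small differences cannot show that the pattern skips them. In all, 10 of 36 Hox genes (27.8%) were at least 1 log2 unit higher in T176, against 6.6% of all genes. None of the 36 was at least 1 log2 unit lower, against 8.34% of all genes. Over the 36 genes the median difference was 0.27, against -0.02 over all genes.

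**Figure D3:**
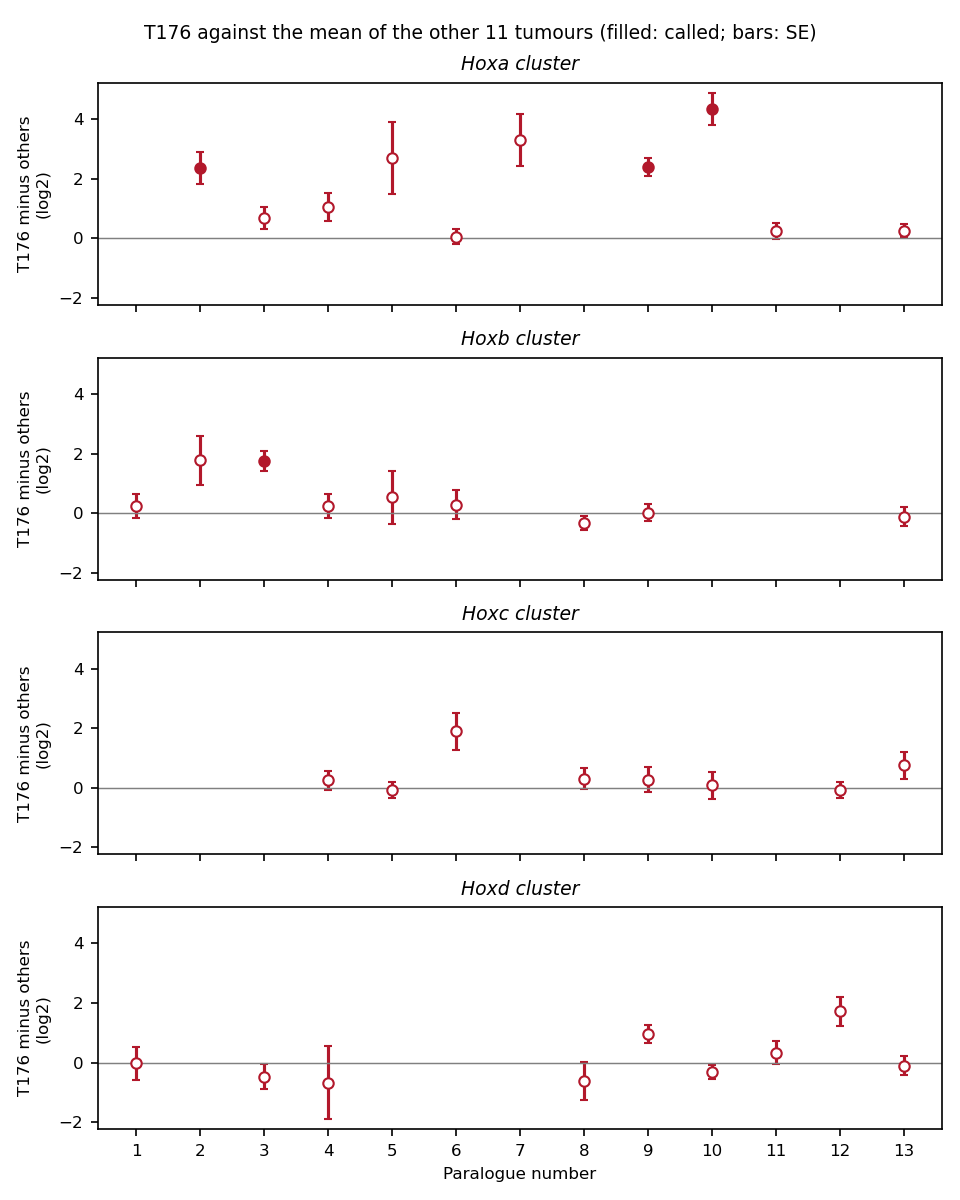
Difference of T176 from the mean of the other 11 tumours (log2) by paralogue number in each Hox cluster, with bars for the SE and filled points for called genes. Hoxa points are all above 0 and reach 4.34 at Hoxa10, and the Hoxd points lie between -0.67 and 1.72.

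T176 also differed in the cell type markers it carried, and the part of these in its Hox values was not tested. Each list was summed up as a score, for which every gene's ratio was first centred on its 12 tumours and the members were then averaged. Beside the counts of members highest or lowest in T176, 13.2% of all genes were highest there. The share of all genes lowest in T176 is not given, and 8.34% were at least 1 log2 unit lower there. For simple and luminal epithelium the score was -4.31 in T176, against -0.14 to 0.91 in the others, and all 15 measured genes were lowest in T176. Among them Krt18, a keratin of luminal mammary cells, was at -4.25 in T176, against 1.13 to 2.97 in the others. In the 11 other tumours this luminal keratin lay above the reference, while Krt19 of the same list ran from -3.66 to 2.72 there. For bone and osteoblast genes the score was 4.82 in T176, against -1.21 to 0.34 in the others, with 6 of 7 genes highest in T176. Ibsp, the bone sialoprotein gene, was at 5.73 in T176, against -5.07 to 0.28 in the others. For mesenchyme and matrix the score was 2.41 in T176, against -1.23 to 1.33 in the others, with 11 of 15 genes highest in T176 and 2, Postn and Thy1, lowest there.

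In T176 the scores of cartilage (0.10), skeletal muscle (-0.10), adipocyte (-0.04), endothelium (0.47) and basal epithelium (-1.23) lay within the range of the other 11 tumours. Single members did not: the cartilage genes Col11a2 (2.61 in T176, against -1.87 to -0.44 in the others) and Acan (-0.39, against -3.53 to -1.50) were called higher in T176. The basal integrin genes Itga6 (-2.14 in T176, against -0.01 to 1.90 in the others) and Itgb4 (-2.18, against 0.34 to 3.06) were called lower. In these lists 2 of 10 cartilage genes were highest in T176, and 2 of 11 basal genes were lowest there. The macrophage score was -1.18 in T176, against -0.74 to 1.39 in the others, with 6 of 9 genes lowest in T176. The only macrophage gene called in T176 went the other way: Cd68 was at 2.81 in T176, against -0.21 to 1.44 in the others (limma adjusted p = 0.0222). The lymphocyte score was -0.61, against -0.53 to 1.19.

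No Hox gene was called in any other tumour against the remaining 11 by limma, and few genes of the array were. The share of all genes called was 0.00593% in T160, 0.0356% in T2023, 0.0533% in T172, 0.0593% in T135 and in T284, and 0.0594% in T372. It was 0.0772% in T55, 0.0949% in T646, 0.107% in T2134, 0.142% in T221 and 0.219% in T920. At an unadjusted p under 0.05 there were 11 Hox genes in T176 (30.6%, against 13.2% of all genes) and 0 to 4 in each of the other tumours, where 0.688% to 12.2% of all genes passed. T2023 had 4 (11.1%, against 5.5% of all genes), Hoxc4, Hoxd1, Hoxd4 and Hoxd8, all with a positive difference and none called. Hoxd1 was at 1.13 in T2023, against -1.03 to -0.01 in the others (difference 1.60 ± 0.346 SE, limma adjusted p = 0.349), and Hoxd8 was at 1.14, against -1.07 to 0.22 (1.76 ± 0.435 SE, 0.423). For Hoxd4 the difference was 3.03 ± 0.915 (SE; limma adjusted p = 0.706). For all 3 T2023 did not overlap the other tumours, while Hoxd3, which lies between Hoxd1 and Hoxd4, was at 0.27 in T2023 and at 0.40 in T160. T176 was the highest of the 12 tumours for 12 Hox genes (33.3%, against 13.2% of all genes) and T2023 for 9 (25%, against 9.6% of all genes).

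T920 was high for the posterior genes Hoxc10 and Hoxd12, but posterior genes shared no direction there. Hoxa11 (0.271) and Hoxa13 (0.504) were highest in T920, while Hoxb9 (-0.425) was lowest and Hoxc13 (-0.927) second lowest. Hoxc10, which acts in hind limb motor neurons, was at 0.53 in T920, against -1.05 to -0.29 in the others (difference 1.25 ± 0.263 SE, limma adjusted p = 0.0939). Hoxd12 was at 1.77 in T920, against 0.03 to 2.04 in the others, the highest being T176, and was not called (difference 1.43 ± 0.561 SE, limma adjusted p = 0.320). With T176 left out it was called (1.60 ± 0.204 SE, limma adjusted p = 0.00662), while 0.267% of all genes were called and 0.124% called higher. Leaving out the only other tumour with a high value favours that call. Further genes with 1 tumour apart were Hoxb6, at 0.10 in T646 against -1.72 to -0.82 in the others (limma adjusted p = 0.217), and Hoxc9, at 0.11 in T221 against -1.44 to -0.60 (0.370). Hoxb5 was at 0.57 in T284 against -2.47 to -0.42 (limma adjusted p = 0.476). In T135 Hoxa4, Hoxa5, Hoxa7 and Hoxb5 were at least 1 log2 unit below the mean of the others, as were 3.25% of all genes. Hoxb2 and Hoxd4 were at least 1 log2 unit above it, as were 4.28% of all genes, and none of these differences was called.

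The second arrays of T172 and T284, with the prior from all genes, give the spread within a tumour on which the F-test rests. Over the 36 Hox genes the 2 arrays of T172 differed by a median of 0.36 (0.01 to 1.67, the highest for Hoxd1), and those of T284 by a median of 0.42 (0.03 to 1.16, the highest for Hoxd9). For 18 of 36 genes in T172 and 20 of 36 in T284 this was less than the median difference between tumours. The SD within a tumour is computed from these gaps, and Hoxd1, with the widest of them, had the largest such SD of the Hox genes, 0.488. The second array moved the same way in both tumours for 21 of 36 Hox genes (58.3%), against 60.7% of all genes with values on every array.

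Over the 12 tumours, neighbouring Hox genes varied together somewhat more than Hox genes of different clusters. The points share arrays and the reference RNA, so the correlations are given as a description. Adjacent here means next to each other among the measured genes of a cluster. The mean pairwise Pearson r was 0.304 for 32 adjacent pairs and 0.199 for the 113 other pairs within a cluster. For all 145 pairs within a cluster it was 0.222. It was 0.126 for 37 pairs of paralogues, 0.060 for 485 pairs from different clusters and 0.002 over all genes. Without T176 these were, in the same order, 0.268, 0.123, 0.155, 0.106, 0.006 and 0.002 over 11 tumours. The Hoxa cluster depended most on that tumour, with a mean r of 0.366 over 12 tumours and 0.098 over 11. In Hoxd the mean was 0.215 over 12 and 0.274 over 11. Hoxa9 with Hoxa10 had r = 0.839 over 12 tumours and -0.200 over 11, while Hoxd4 with Hoxd8, which are next to each other among the measured genes, had 0.801 and 0.799. Hoxc6 with Hoxc9 had 0.717 and 0.802, and the paralogues Hoxa3 and Hoxb3 had 0.776 and 0.770.

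**Figure D4:**
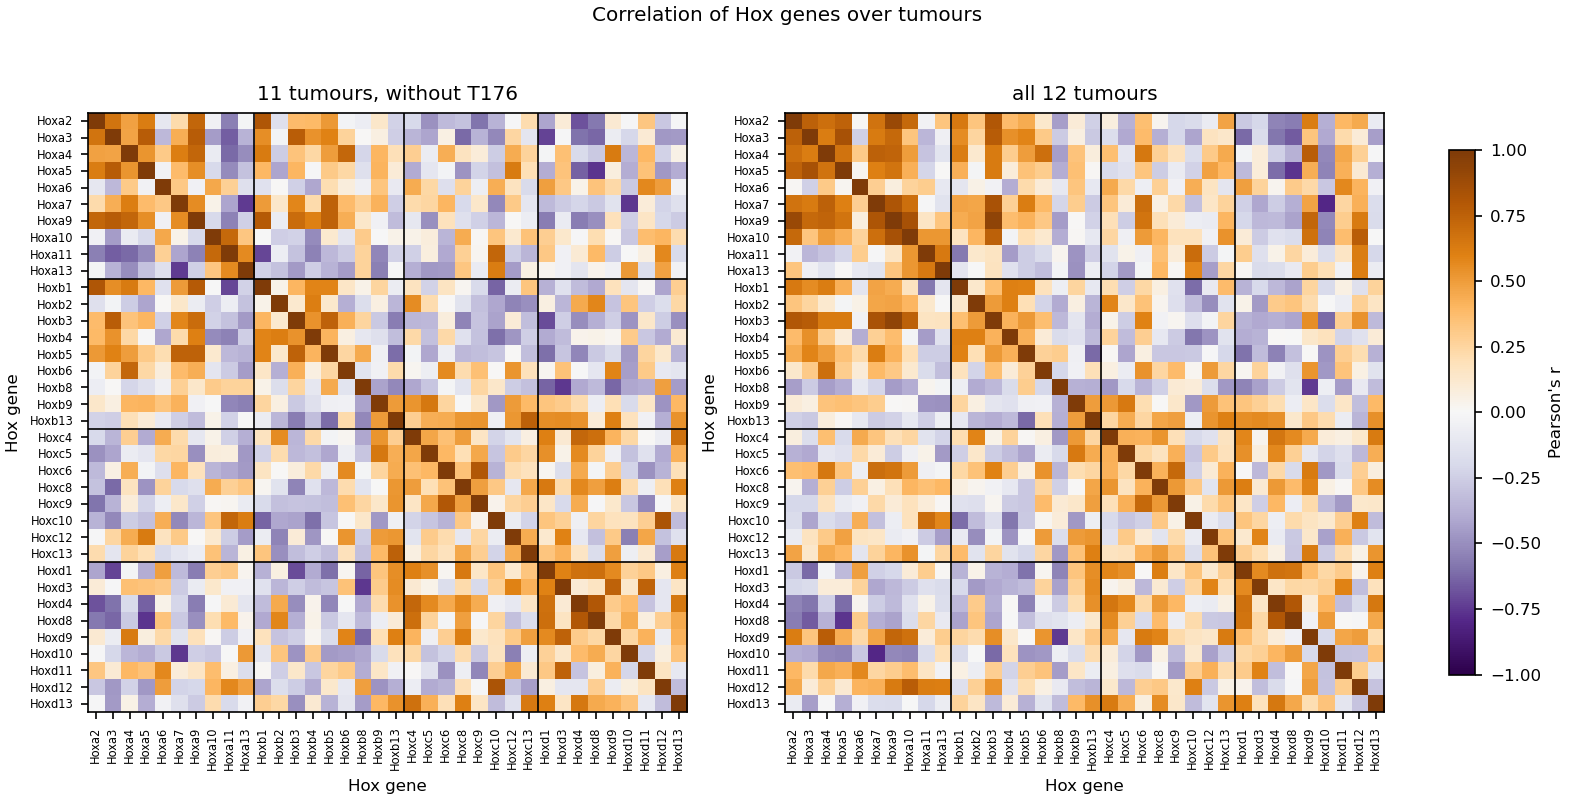
Pearson's r between Hox genes over 11 tumours without T176 (left) and over all 12 (right), with lines between the clusters. The Hoxa block is darker over 12 tumours (mean r 0.366) than over 11 (0.098), and the pair Hoxd4 and Hoxd8 is dark in both (0.801 and 0.799).

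With each gene's mean removed, the tumours most alike over the 35 Hox genes with values in all 12 were T160 and T2134 (r = 0.804), T135 and T2023 (0.726) and T172 and T284 (0.603). The least alike by this Pearson r were T284 and T2023 (-0.624). The order depended on the measure. By Spearman's rank correlation T135 and T176 were least alike (-0.644), T284 and T2023 were at -0.510, and T135 and T2023 at 0.506. Hoxd4 shows the contrast of T284 (-2.75) with T2023 (1.64). Hoxb5 runs the other way, at 0.57 in T284 and -2.33 in T2023. Hoxa5 separates T160 and T2134 from T135 and T2023: it was 0.14 in T160 and -0.55 in T2134, and -3.62 in T135 and -3.22 in T2023. Hoxa5, Hoxd4 and Hoxb5 were part of these correlations, so their values only illustrate them.

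For the 3 called Hox genes with the largest SD, the array was searched for the genes with the most similar pattern over 12 tumours among 16617 genes. Those nearest to Hoxa5 were Ssna1 (r = 0.928), Copb2 (0.899) and Xpo4 (0.885). Those nearest to Hoxa10 were Spaca1 (r = 0.959), Chst8 (0.956) and Bcan (0.950), for which r was 0.706, 0.695 and 0.594 without T176. Hoxa7 was most similar to Pls1 (r = 0.920, and 0.955 without T176), Adam12 (0.908) and Adam18 (0.895). Of these genes only Spaca1, Bcan and Pls1 were called between tumours by limma's F-test. Ssna1, Copb2 and Xpo4 were not (limma adjusted p = 0.406, 0.194 and 0.558). Being the highest of so many correlations over 12 tumours, these values are large partly by selection and only describe the patterns.

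Genes that act with or on Hox genes, or lie beside them, were read from lists chosen with earlier results of these data known. Of 9 measured TALE cofactors, the Pbx, Meis and related DNA-binding partners of Hox proteins, 2 were called between tumours. That is 22.2%, against 18.3% of all genes. Meis2 was -4.05 in T135 and -1.29 in T221 (limma adjusted p = 0.0384), and Meis3 was -1.20 in T2134 and 1.48 in T176 (0.0347). None of 17 Polycomb repressors and none of 8 Trithorax-type activators was called by limma's F-test, against 18.3% of all genes. Of the 17 Polycomb genes, 2 were highest and 2 lowest in T176, where 13.2% of all genes were highest. Only Cbx2 of them was called in T176. Cbx2, a Polycomb subunit that binds methylated histone H3, was higher in T176, at 1.15, against -0.16 to 0.53 in the others (difference 0.97 ± 0.243 SE, limma adjusted p = 0.0434). Of 14 retinoic acid and Cdx genes 4 were called (28.6%, against 18.3% of all genes), Aldh1a1, Aldh1a3, Crabp1 and Cdx4. Cdx4, a known activator of Hox genes, was at -3.94 in T135 and 0.43 in T372 (limma adjusted p = 0.0039). Of 20 genes flanking the clusters 5 were called (25%, against 18.3% of all genes), with no common direction in T176. The lists are small, and a difference of their shares from that of all genes was not tested. Nfe2l3, beside the Hoxa cluster, was lower in T176, at -2.07, against 0.91 to 3.68 in the others (limma adjusted p = 0.0091). Snx10, on the same side, was higher in T176, at 1.79, against -1.23 to 0.39 in the others (0.0164). Skap2, between them and the Hoxa genes, was at 0.93 in T176, against -1.35 to 2.41 (0.998).

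Of 18 measured limb and skeletal patterning genes outside the Hox clusters, most of them homeobox genes, 11 were called between tumours, 61.1% against 18.3% of all genes. In T176 3 of them were called, all higher, where 3.83% of all genes were called and 2.48% called higher. Dlx6, which acts in the jaw and the limb bud, was at 2.89 in T176, against -1.80 to -1.06 in the others (difference 4.20 ± 0.281 SE, limma adjusted p = 4.25e-06). Tbx18, a T-box gene of the urinary tract and the heart, was at 0.69 in T176, against -2.04 to -0.67 in the others (limma adjusted p = 0.0153). Alx4, a gene of the skull and limb, was at 1.22 in T176, against -0.25 to 0.58 in the others (0.0343). Pitx1, which marks hind limb tissue, had its highest value, 3.01, in T221 and not in T176 (-3.05).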

How the data were processed

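The deposited series table holds a log2 value per probe and array. Its base was inferred from the range of values, -9.19 to 7.42, and its direction, tumour (Cy5) over reference (Cy3), was assumed from the dyes that the labels name, since no source used here states the numerator. Under this reading the luminal keratin gene Krt18 lay above the reference in 11 of 12 tumours. Krt19, also on the luminal list, had a median of -0.99 over the tumours, below the reference. The direction was not tested. Medians of the 14 arrays were 0 to 0.018, which fits centring of each array. RNA extraction was with a Qiagen RNeasy column kit, per the labels' protocols. The scanner, the background correction and the normalization are not given in the sources used. Each array had values for 22501 to 22566 of 22575 probes. The ratios carry no brightness, so a filter on dim probes could not be applied.

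Probes with 1 symbol (18658) were named from the platform annotation and updated through the RefSeq gene table, which gave 16879 genes, and probes of a gene were averaged. A gene needed at least 12 values over the 14 arrays and a complete pair for T172 or T284, which 16877 genes met. Tests were limma's (version 3.58.1, under R 4.3.3), with the moderated F of genes with a missing value computed over the values present. The F-test over 12 tumours used all 14 arrays, with the prior fitted to all genes (7.22 degrees of freedom, SD 0.313). For the comparison of each tumour with the other 11, arrays of T172 and of T284 were averaged, and the lone tumour is assumed to vary like the others. Adjustment was after Benjamini-Hochberg. The steps were tested on simulated data. Correlations and motif counts used Python 3.11.15, numpy 2.4.6 and pandas 2.3.3.

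The Hox genes and all lists were chosen with earlier results of these data known. The naming rule took every Hox gene called, by its lowest, median and highest tumour, the 3 genes most like each of the 3 most variable called genes, and up to 4 called members of each other list. Flanking and patterning genes called in T176, Cbx2, Skap2, Pitx1 in T176, and the uncalled Hox genes described were named after their values were seen. Alternatives left out an array, changed scaling, probe choice, prior, symbols, threshold or missing values.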

Additional observations from a re-analysis of the deposited data

How the results depend on the processing

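Between tumours, 9 Hox genes were called in the setting reported. The count was 10 with genes measured on all 14 arrays, 12 after quantile normalization, 13 after median absolute deviation scaling, and 6 at an adjusted p under 0.01. It was 9 with 1 probe per gene, with a robust prior and with annotation symbols. Leaving out each array in turn gave 5 to 11 calls, 5 being the count without T176, where Hoxa2, Hoxa10, Hoxc6 and Hoxd12 were lost. Against the other 11 tumours, 4 Hox genes were called, all in T176. The count was 6 after quantile normalization, 5 after median absolute deviation scaling, 3 at an adjusted p under 0.01 and 4 in the other settings that keep all tumours. Leaving out each array gave 1 to 6 calls, 1 being the count without T176, that of Hoxd12 in T920. The differences of Hoxa2, Hoxa9, Hoxa10 and Hoxb3 in T176 kept their direction in all 22 alternatives, each of which keeps the single array of T176. The directions of other differences were not compared between settings. Hoxd1 was called between tumours only without the first array of T172 (limma adjusted p = 0.0167). No paired analysis was possible because each tumour is its own group and only T172 and T284 have a second array. Precision rests on 14 arrays, and the spread within a tumour on these second arrays and the prior from all genes. Signal over background is unknown.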
